A study of Rattus norvegicus with 6 samples.

Results

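Heat shock proteins and related chaperones were examined in the renal cortex of rats given ethylenediamine dihydrochloride. The 10 genes considered were Hspa1b, Hspa8, Hspa4, Hsp90aa1, Hspb1, Cryab, Dnajb1, Hsph1, Hspd1 and Hspe1, and each was read through every array probe whose RefSeq transcript accession carried its symbol. Of these, 8 genes had such a probe, 27 probes in all, among 28194 probes with a symbol. Hspa1b, the inducible cytosolic HSP70, and Dnajb1, a J-domain partner of HSP70, had 0 matched probes and are not analysed here. All 27 probes were well above background on all 6 arrays, so all 8 genes entered the 11530 genes tested.

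The ethylenediamine group held 3 male Sprague-Dawley rats given ethylenediamine dihydrochloride, a small diamine salt, at 500 mg/kg/day for 4 weeks. The water group held 3 such rats given water for the same 4 weeks. All 6 animals were bought at 5 weeks of age and kept on a basal diet, and each gave 1 array of Cy3-labelled cRNA. The comparison asks which cortical transcripts differ after treatment. The labels describe biological replicates, so the spread between arrays contains the spread between animals.

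Chaperones bind unfolded or partly folded proteins and either hold them or fold them in cycles of ATP binding and release. Cells under heat, oxidative or toxic stress raise many of them through heat shock factor 1 (HSF1), which binds inverted repeats of the letters GAA, the heat shock element. In kidney tubules, chaperones are studied as part of the response to ischaemia and toxicants, and small heat shock proteins also bind cytoskeletal filaments.

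The 250 bases before the annotated transcription start were available from RefSeq (GRCr8) for 7 of the 10 genes. These windows were searched on both strands for the 2-unit heat shock element (GAANNTTC or TTCNNGAA, each its own reverse complement) and the 3-unit element (GAANNTTC followed by NNGAA, or TTCNNGAA followed by NNTTC), which contains 2-unit ones. The 2-unit element was present in 6 of the 7 and in 13.5% of 33469 RefSeq windows of the same length, and the 3-unit element in 4 of the 7 and in 0.663% of the windows. Hspa4 held neither, and neither did the window before Hspa1a, the close relative of Hspa1b. Elements farther away, or at another start of a gene, were not searched for. The 4 windows below are shown because they carry the elements of the genes whose array values are described next, with each match in capitals. Hspd1 and Hspe1 are transcribed in opposite directions, their windows overlap by 211 bases, and the same match lies in both, so the Hspe1 window stands for the pair.
Hspa8 (chr8:50080264-50080513, + strand): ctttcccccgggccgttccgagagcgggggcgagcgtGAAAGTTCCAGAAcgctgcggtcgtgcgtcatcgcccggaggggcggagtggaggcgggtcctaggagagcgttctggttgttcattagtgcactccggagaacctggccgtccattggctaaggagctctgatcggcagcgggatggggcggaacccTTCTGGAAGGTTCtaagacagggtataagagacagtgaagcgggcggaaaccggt
Hsph1 (chr12:10427118-10427367, + strand): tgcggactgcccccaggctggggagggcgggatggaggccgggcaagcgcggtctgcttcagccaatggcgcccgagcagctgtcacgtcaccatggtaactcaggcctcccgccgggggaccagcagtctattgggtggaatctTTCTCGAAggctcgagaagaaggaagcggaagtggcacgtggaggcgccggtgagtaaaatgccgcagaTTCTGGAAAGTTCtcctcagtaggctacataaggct
Hspe1 (chr9:64084077-64084326, + strand): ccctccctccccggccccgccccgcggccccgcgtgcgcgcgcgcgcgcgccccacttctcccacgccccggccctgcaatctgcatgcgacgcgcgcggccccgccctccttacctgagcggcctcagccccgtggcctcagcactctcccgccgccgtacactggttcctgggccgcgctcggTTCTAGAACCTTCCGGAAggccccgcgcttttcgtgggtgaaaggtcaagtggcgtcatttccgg
Hspb1 (chr12:26432302-26432551, - strand): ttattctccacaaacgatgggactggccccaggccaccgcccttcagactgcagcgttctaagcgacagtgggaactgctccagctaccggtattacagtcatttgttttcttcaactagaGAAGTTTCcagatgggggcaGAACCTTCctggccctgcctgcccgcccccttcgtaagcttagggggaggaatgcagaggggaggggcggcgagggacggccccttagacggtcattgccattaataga
In Hspa8 the 3-unit matches began 213 and 55 bases before the start, in Hsph1 36 bases before it, and in Hspe1 a run of 18 bases began 65 bases before it. Hspb1 held 2-unit matches that began 129 and 109 bases before the start. A match is a run of letters and not evidence of binding in these samples.

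The arrays came from 2 slides, which were also scanned on different days. Slide 1 held ethylenediamine replicate 1 and the 3 water arrays, and slide 2 held ethylenediamine replicates 2 and 3. Any value within slide 1 therefore rests on 1 treated array. The number of spots well above background ran from 35691 to 40843 on the ethylenediamine arrays, with the lowest on replicate 1, and from 38930 to 40563 on the water arrays. All 6 proximal tubule markers, such as Slc34a1 and Lrp2, were well above background and tested. Their log2 fold changes, ethylenediamine minus water, were positive for 4 and negative for 2. They ran from -0.19 ± 0.06 (Lrp2; limma adjusted p = 0.371) to 0.05. The groups did not overlap for Lrp2 and Slc5a2, which were lower, and for Slc22a6, which was higher. Of the 6 adrenal markers 4 (Star, Cyp11a1, Cyp11b1 and Cyp11b2) were not tested. The other 2, Hsd3b1 (0.57 ± 0.08; limma adjusted p = 0.230) and Cyp21a1 (0.12 ± 0.10), summed to 0.766 to 0.885 multiples of the array's 75th percentile in ethylenediamine cortex, against 0.586 to 0.624 in water cortex.

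No chaperone gene examined passed the test. By limma, 0 of the 8 genes had an adjusted p under 0.05, as for all genes (higher 0% and lower 0% of 11530 genes). At an unadjusted p under 0.05 limma gave 0 of the 8 higher and 0 lower, beside 5.39% of all genes higher and 4.97% lower. The groups did not overlap for 0 of the 8, beside 9.2% of all genes higher and 8.27% lower. The log2 fold change was above 0 for 5 of the 8 and for 48.8% of all genes tested. Its median over the 8 was 0.05, beside 0.00 (-0.0036) over all 11530 genes. Values below are log2 signals relative to each array's 75th percentile, and differences are ethylenediamine minus water.

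**Figure D1:**
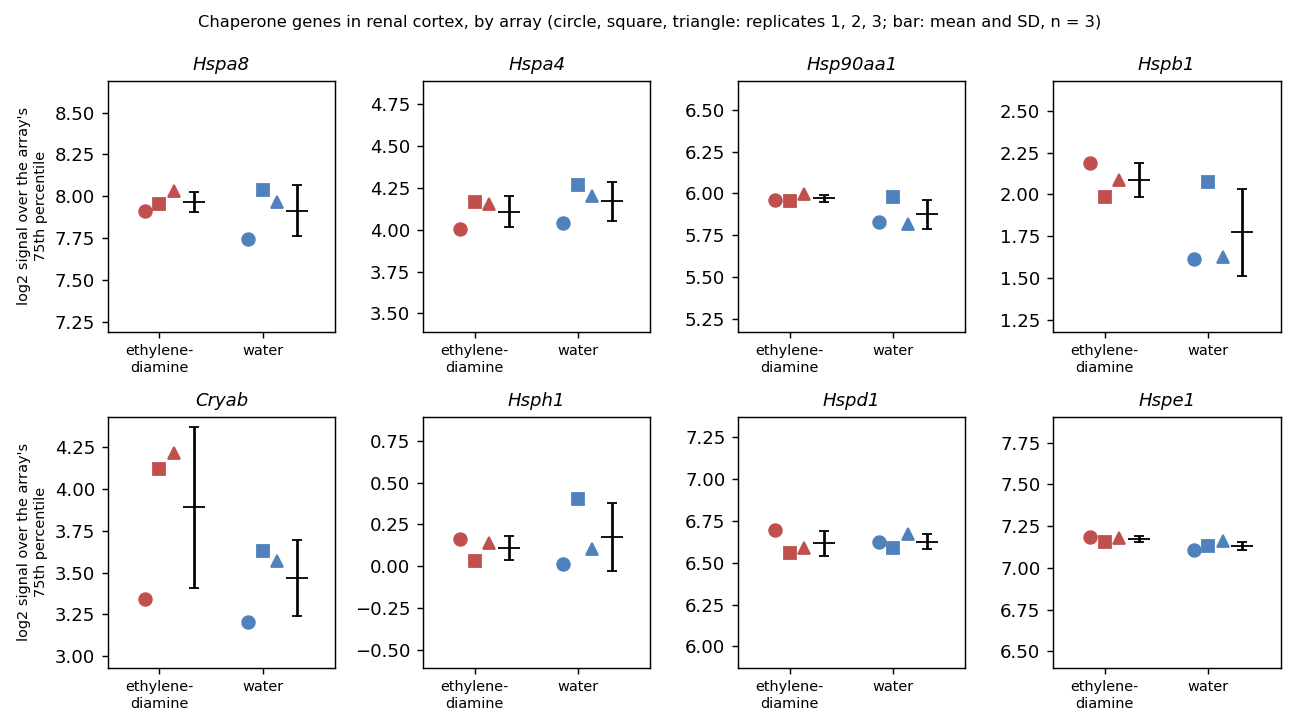
Log2 signal relative to the array's 75th percentile (vertical axis, 1.5 log2 units in every panel) for the brightest probe of 8 chaperone genes in ethylenediamine (red, left) and water (blue, right) arrays, with mean and SD, n = 3 per group. Cryab spreads most, with ethylenediamine replicate 1 at 3.34 and replicates 2 and 3 at 4.12 and 4.22, and Hspe1 spreads least.

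The cytosolic HSP70 machine gave values that varied more among water rats than between the groups. Hspa8 encodes Hsc70, the HSP70 that cells make without stress. Its brightest probe read 7.91, 7.95 and 8.03 on ethylenediamine replicates 1 to 3, against 7.74, 8.03 and 7.96 on water replicates 1 to 3. The treated values lie inside the range of the water values, and the difference was 0.05 ± 0.09 on the log2 scale (SE, n = 3 per group; 95% interval -0.17 to 0.27; limma adjusted p = 0.865). All 8 Hspa8 probes had the same shape: water replicate 2 was the highest of the 6 arrays in 8 of 8, and their log2 fold changes ran from -0.09 to 0.05. These probes share a transcript, so they are not independent measurements.

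Hspa4 and Hsph1 encode members of the HSP110 group, which release ADP from HSP70. Hspa4 read 4.003, 4.17 and 4.15 in ethylenediamine cortex, against 4.04, 4.27 and 4.20 in water cortex. Hsph1 read 0.16, 0.03 and 0.14 in ethylenediamine cortex, against 0.01, 0.40 and 0.10 in water cortex. Both genes had overlapping groups, and water replicate 2 was the highest array for both. Over the 3 Hspa4 probes, water replicate 2 was the highest of the 6 arrays in 2. The log2 fold change was -0.06 ± 0.08 for Hspa4 (SE, n = 3 per group; limma adjusted p = 0.815) and -0.06 ± 0.11 for Hsph1 (limma adjusted p = 0.865). All 3 Hspa4 probes had a negative log2 fold change, the largest in size being -0.10. With each array left out in turn, Hspa4 ran from -0.127 (without water replicate 1) to -0.0093 (without ethylenediamine replicate 1), and it was -0.0145 without water replicate 2 and -0.169 within slide 1. Hsph1 ran from -0.14 to 0.05, the positive value without water replicate 2.

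Hspa1a encodes the other stress-inducible HSP70 and is nearly identical to Hspa1b, so its probe may bind both transcripts. It was taken from the list of HSP70 relatives. It read -1.26, -1.72 and -1.84 in ethylenediamine cortex, against -1.94, -0.60 and -1.76 in water cortex. Water replicate 2 stood above the other 5 arrays, and the groups overlapped. The log2 fold change was -0.18 ± 0.38 (SE, n = 3 per group; limma adjusted p = 0.898; 95% interval -1.11 to 0.76), and 0.24 without water replicate 2. It was 0.17 within slide 1.

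**Figure D2:**
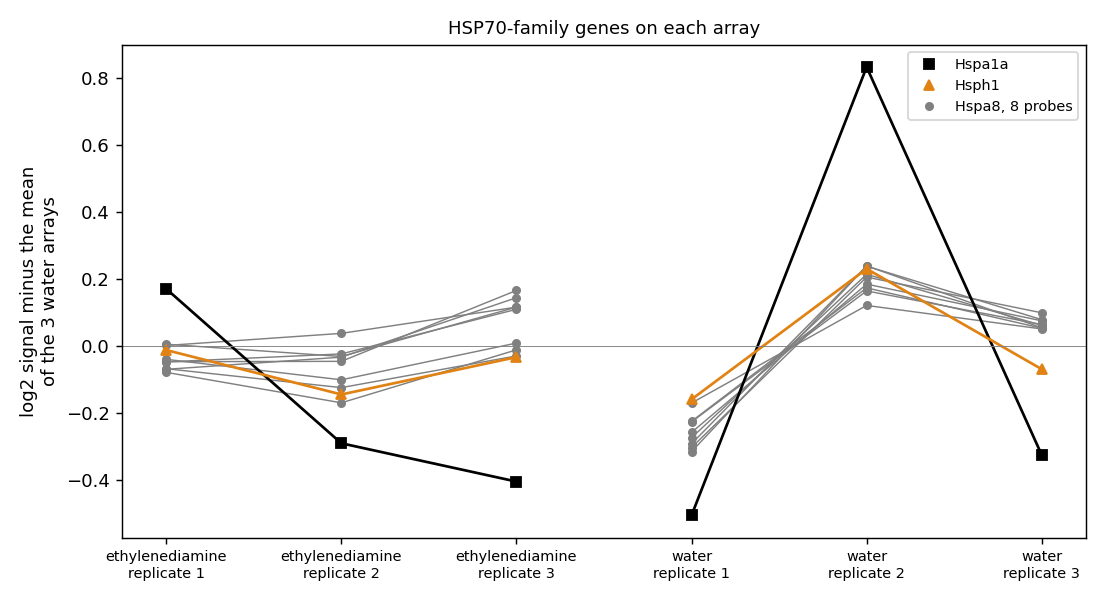
Log2 signal minus the mean of the 3 water arrays (vertical axis) on each of the 6 arrays for the 8 probes of Hspa8 (grey), Hsph1 (orange) and Hspa1a (black). Water replicate 2 is the highest array for every line and water replicate 1 the lowest of the water arrays.

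The spread among water rats was shared by several members. Water replicate 2 was the highest of the 3 water arrays for 6 of the 8 genes, beside 33.6% of all genes tested. Water replicate 1 was the lowest of the 3 for 6 of the 8, beside 35.1% of all genes. Water replicate 2 was the highest of all 6 arrays for 3 of the 8, Hspa8, Hspa4 and Hsph1, beside 16.9% of all genes. The median over the 8 genes, as a difference from the water mean, was 0.03, 0.03 and 0.08 on ethylenediamine replicates 1 to 3, against -0.14, 0.11 and 0.03 on water replicates 1 to 3. The profile of Hspa1b could not be used to find similar genes, so that of Hspa1a was used, a choice made after the missing probe was seen. Among 10930 genes well above background on all 6 arrays, the closest centred profiles were those of Akap5, Plppr4, P2ry1, Thy1 and Mt3. Akap5, a kinase-anchoring protein, differed from Hspa1a by a root mean square of 0.0673 log2 units over the 6 arrays, and the other 4 by 0.205 to 0.224, where Hspa1a itself spanned 1.34. Akap5 read -3.58, -4.22 and -4.29 in ethylenediamine cortex, against -4.28, -3.04 and -4.24 in water cortex, a likeness that its choice by profile fixes.

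Hsp90aa1 encodes HSP90 alpha, the stress-responsive cytosolic HSP90, which matures kinases and steroid receptors. All 6 of its probes had a positive log2 fold change, from 0.09 to 0.35. They share a transcript, so they are not independent measurements. The brightest probe read 5.96, 5.95 and 5.99 in ethylenediamine cortex, against 5.83, 5.98 and 5.82 in water cortex. Its treated values were close together and water replicate 2 stood among them, and the difference was 0.09 ± 0.06 on the log2 scale (SE, n = 3 per group; limma adjusted p = 0.646). It had the smallest difference of the 6 probes, and with the mean of the 6 standing for the gene the difference was 0.21 (limma adjusted p = 0.452, unadjusted p under 0.05). Without water replicate 2 the brightest probe stood at 0.145. The probe with the largest difference, A_44_P135339, read 2.03, 2.06 and 2.21 in ethylenediamine cortex, against 1.69, 1.79 and 1.78 in water cortex. There the groups did not overlap, with a log2 fold change of 0.35 ± 0.07 and, with every probe tested alone, a limma adjusted p of 0.347.

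The Hsp90aa1 probes did not agree on size. The groups were apart for A_44_P135339, A_64_P119852 and A_64_P023633, which were also the 3 at an unadjusted p under 0.05. They overlapped for the other 3 probes. All 6 read the same transcript, so the probe counts that follow are not counts of independent results. Over all 27 probes of the 8 genes, p before adjustment was under 0.05 for 3 higher probes and 0 lower ones, beside 4.85% and 5.84% of 37822 probes. The groups did not overlap for 3 probes that were higher and 1 that was lower, beside 8.43% and 9.57% of all probes. At an adjusted p under 0.05 limma called 0 of the 27, beside 0.0106% of all probes higher and 0% lower. Within slide 1, 5 of the 6 Hsp90aa1 probes were positive, from -0.03 to 0.28, and 1 had an unadjusted p under 0.05.

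**Figure D3:**
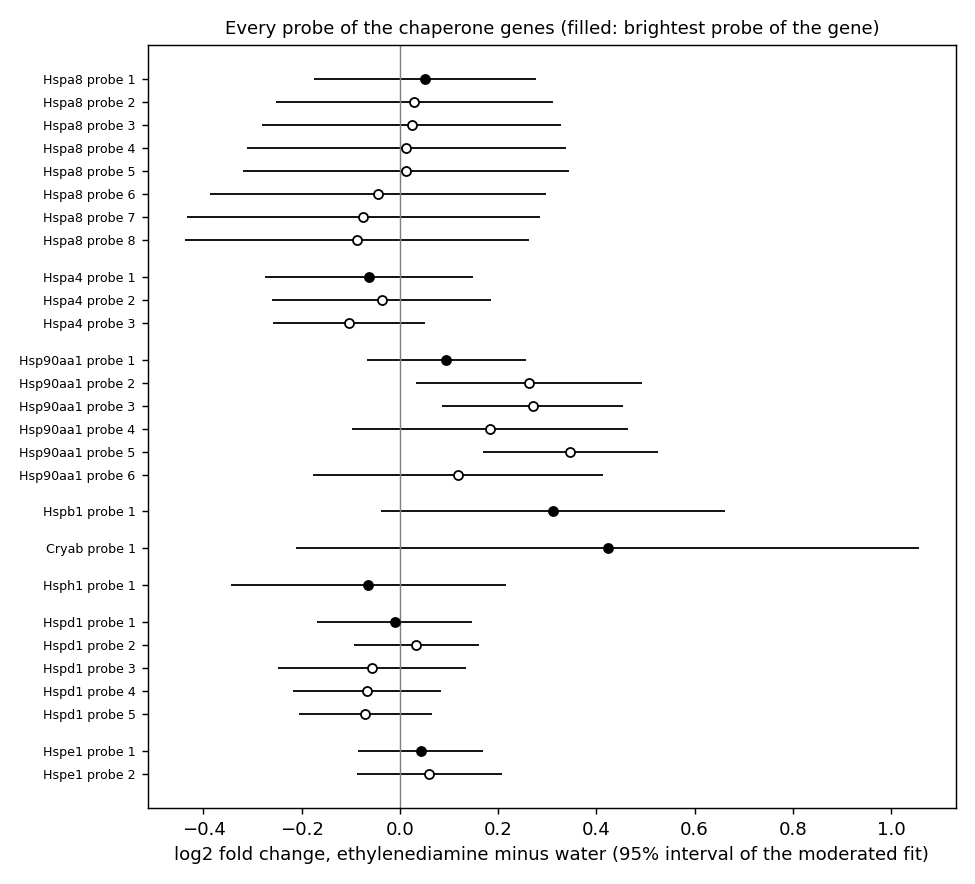
Log2 fold change, ethylenediamine minus water (horizontal axis), with the 95% interval of the moderated fit for all 27 probes, grouped by gene and ordered by brightness, the brightest filled. The 6 Hsp90aa1 probes lie between 0.09 and 0.35, while those of Hspa8, Hspa4, Hspd1 and Hspe1 lie between -0.10 and 0.06.

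The small heat shock proteins Hspb1 and Cryab had the largest log2 fold changes of the 8 genes, and neither passed the test. Hspb1, known as HSP27, holds unfolded proteins and binds actin. It read 2.18, 1.98 and 2.08 in ethylenediamine cortex, against 1.61, 2.08 and 1.63 in water cortex. Water replicates 1 and 3 stood below all treated arrays and water replicate 2 among them. The log2 fold change was 0.31 ± 0.14 (SE, n = 3 per group; 95% interval -0.04 to 0.66; limma adjusted p = 0.521). With each array left out in turn it ran from 0.23 (without water replicate 1) to 0.46 (without water replicate 2), and it was 0.41 within slide 1.

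Cryab encodes alpha-B crystallin, a small heat shock protein that binds desmin and other filaments. It read 3.34, 4.12 and 4.22 in ethylenediamine cortex, against 3.21, 3.63 and 3.57 in water cortex. Ethylenediamine replicates 2 and 3, on slide 2, stood above all other arrays, and replicate 1, on slide 1, stood among the water values. The log2 fold change was 0.42 ± 0.26 (SE, n = 3 per group; 95% interval -0.21 to 1.06; limma adjusted p = 0.617). Within slide 1 it was -0.13, so that treatment and slide cannot be told apart for the high values. With each array left out in turn it ran from 0.26 (without ethylenediamine replicate 3; limma adjusted p = 0.813) to 0.70 (without ethylenediamine replicate 1; limma adjusted p = 0.219).

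Smooth muscle and other cortical cells contain these small heat shock proteins, and in a bulk sample more cells of a type and more RNA per cell cannot be told apart. Of 7 smooth muscle and pericyte markers 6 were tested, all 6 with positive log2 fold changes from 0.15 to 0.83, and Cnn1 was not tested. Their summed signal, in multiples of the array's 75th percentile, was 39.3 to 55.1 in ethylenediamine cortex, against 27.9 to 42.9 in water cortex. Of the 3 thick limb markers 1 had a positive log2 fold change, Umod at 0.25 ± 0.17, and Cldn16 and Slc12a1 stood at -0.02 each. Their sum, mostly Umod, was 275, 334 and 347 on ethylenediamine replicates 1 to 3. On water replicates 1 to 3 it was 212, 306 and 305. As for Cryab, replicate 1 was the lowest array of each group. The smooth muscle and pericyte sum was instead highest on ethylenediamine replicate 1 (55.1) and lowest on water replicate 1 (27.9). Of 8 inner medulla and papilla markers Fxyd4 and Upk3a were not tested. The other 6 had a summed signal, mostly Aqp3, of 25.4 to 34.1 in ethylenediamine cortex, against 29.8 to 39.4 in water cortex. All 6 distal tubule and collecting duct markers had negative log2 fold changes. Their sum, mostly Aqp2, was 117 to 149 in ethylenediamine cortex, against 174 to 208 in water cortex. The part of these cells in the Hspb1 and Cryab values was not tested.

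Among 8 further small heat shock genes, 6 were tested. Hspb8, which works with the co-chaperone Bag3 in clearing damaged proteins, read -2.91, -2.82 and -3.07 in ethylenediamine cortex, against -2.79, -2.34 and -2.45 in water cortex. All treated values lay below all water values, and the difference was -0.40 ± 0.14 on the log2 scale (SE, n = 3 per group; limma adjusted p = 0.422). Bag3 itself, chosen after its values were seen, read 3.88, 3.78 and 4.33 in ethylenediamine cortex, against 4.36, 4.30 and 4.27 in water cortex. Its groups overlapped only through ethylenediamine replicate 3 (log2 fold change -0.31 ± 0.15; limma adjusted p = 0.535). Hspbap1, which binds Hspb1, stood at 0.23 ± 0.18, and at -0.02 within slide 1. It read 3.56, 3.65 and 4.23 in ethylenediamine cortex, against 3.52, 3.61 and 3.62 in water cortex. Ethylenediamine replicate 3 stood apart from the other arrays.

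The mitochondrial chaperonin had the least spread. Hspd1 encodes HSP60, which forms a folding chamber in the matrix, and Hspe1 encodes its HSP10 lid. Hspd1 read 6.70, 6.56 and 6.59 in ethylenediamine cortex, against 6.62, 6.59 and 6.67 in water cortex. Hspe1 read 7.19, 7.15 and 7.18 in ethylenediamine cortex, against 7.11, 7.13 and 7.16 in water cortex. The groups overlapped for both genes. The log2 fold change was -0.01 ± 0.06 for Hspd1 (SE, n = 3 per group; 95% interval -0.16 to 0.14; limma adjusted p = 0.965) and 0.04 ± 0.05 for Hspe1 (95% interval -0.08 to 0.16; limma adjusted p = 0.778). Larger differences lie outside these intervals, and differences within them cannot be told from 0 with 3 arrays per group.

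The 5 Hspd1 probes ran from -0.07 to 0.03, 4 of them negative. The dimmest, A_44_P846589, read 3.40, 3.31 and 3.32 in ethylenediamine cortex, against 3.42, 3.42 and 3.40 in water cortex. It is the 1 probe of the 27 with all treated values below all water values. Within-group SD was 0.0218 for Hspe1 and 0.0602 for Hspd1, beside 0.377 for Cryab and a median of 0.115 over all genes tested. It was above that median for 4 of the 8 genes, Hspa8 (0.1154, against 0.1151 over all genes), Hspb1, Cryab and Hsph1.

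Other genes of the chaperone network were read from 7 lists with 98 genes, 88 of them tested. By limma 0 passed at an adjusted p under 0.05, and its p before adjustment was under 0.05 for 3 higher genes and 2 lower ones. Over all genes tested 5.39% were higher and 4.97% lower at that level, so by that count the listed genes did not exceed the background. The groups did not overlap for 15 higher and 9 lower of the 96 members and listed genes together, 0 of them members. Of all genes tested 9.2% were apart and higher and 8.27% apart and lower. By this count both shares were above the background, the higher one by more, and this excess was not tested. The median log2 fold change of the 88 was 0.02, with 48 positive and 40 negative. Genes of smallest p in each list are named here, up to 2 a list, with SE and n = 3 per group.

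Hsf1, which encodes the heat shock transcription factor, read 1.29, 1.43 and 1.32 in ethylenediamine cortex, against 1.08, 1.14 and 1.19 in water cortex. All treated values lay above all water values, with a log2 fold change of 0.21 ± 0.06 (limma adjusted p = 0.377), and 0.16 within slide 1. Hsf1 protein is controlled largely after translation, so its transcript is not a measure of its activity. Hmox1, the haem oxygenase, read -1.22, -1.38 and -1.09 in ethylenediamine cortex, against 5.40, -1.72 and -1.36 in water cortex. Water replicate 1 stood far above the other 5 arrays, which all lay between -1.72 and -1.09, and the log2 fold change of -2.005 ± 1.92 contains it (limma adjusted p = 0.736).

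J-domain proteins deliver clients to HSP70 and start its ATP hydrolysis. Of 18 listed, 17 were tested, with 8 log2 fold changes positive and 9 negative. Dnaja4 read 0.99, 1.19 and 1.41 in ethylenediamine cortex, against 0.73, 0.89 and 0.57 in water cortex (log2 fold change 0.47 ± 0.13; limma adjusted p = 0.371). Dnajc5, the cysteine string protein of secretory vesicles, read -0.03, -0.03 and -0.02 in ethylenediamine cortex, against -0.27, -0.29 and -0.22 in water cortex (0.23 ± 0.05; limma adjusted p = 0.329). For both genes all treated values lay above all water values. Within slide 1 Dnaja4 stood at 0.26 and Dnajc5 at 0.23.

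Of 15 tested HSP70 relatives and exchange factors 9 were positive. Hspa2, an HSP70 best known from the testis, read -2.44, -1.87 and -1.42 in ethylenediamine cortex, against -2.74, -2.18 and -2.81 in water cortex (log2 fold change 0.67 ± 0.30; limma adjusted p = 0.507). Its groups overlapped, and within slide 1 it stood at 0.14. Bag4 stood at -0.20 ± 0.08. Of 13 tested HSP90 partners 9 were positive, with Ahsa1, which activates the HSP90 ATPase, at 0.12 ± 0.05 (limma adjusted p = 0.512).

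The cytosolic chaperonin TRiC folds actin and tubulin, and prefoldin hands it their unfolded chains. All 8 TRiC subunits had small positive log2 fold changes, from 0.02 (Cct2) to 0.13 ± 0.06 (Cct3), though under median scaling 7 of 8 did. A positive value was found for 48.8% of all genes tested. The groups did not overlap for 5 of the 8, all higher, beside 9.2% of all genes. By limma 0 of the 8 had an unadjusted p under 0.05, beside 5.39% of all genes higher. Of 4 tested prefoldin subunits 3 were negative, 2 of 4 without ethylenediamine replicate 1. Pfdn6 read 2.58, 2.51 and 2.60 in ethylenediamine cortex, against 2.77, 2.85 and 2.84 in water cortex (log2 fold change -0.26 ± 0.06; limma adjusted p = 0.329), with all treated values below all water values.

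Of 12 tested mitochondrial chaperones and proteases 9 were negative, with a median of -0.04, and 7 of 12 were negative within slide 1. Lonp1, the matrix protease that removes damaged proteins, stood at -0.16 ± 0.07 (limma adjusted p = 0.489). Tomm20, a receptor of the outer membrane import pore, stood at -0.10 ± 0.05 (limma adjusted p = 0.565).

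**Figure D4:**
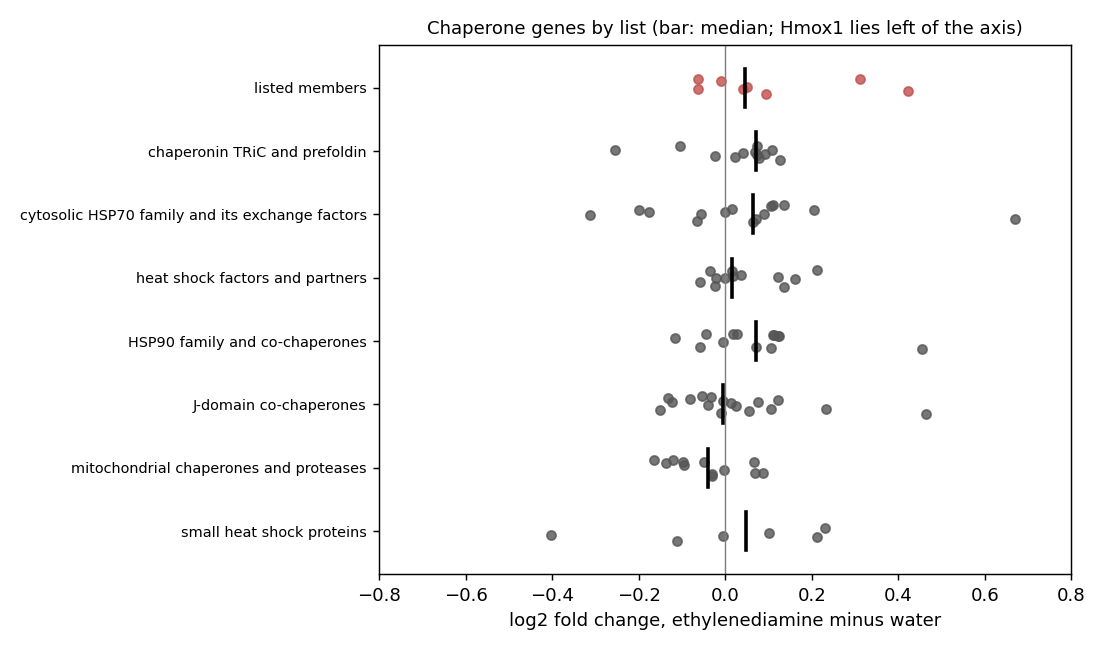
Log2 fold change, ethylenediamine minus water (horizontal axis), of the 8 measured members (red) and of the 88 further chaperone genes tested (grey) in 7 lists, with the median of each group as a bar. The medians lie between -0.04 and 0.07, and Hmox1, at -2.005, lies outside the axis.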

How the data were processed

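Total RNA of renal cortex was hybridised to 1-colour Agilent arrays, 1 per animal. Per the file headers, the deposited intensity is the spot signal after background subtraction and detrending by Agilent Feature Extraction 10.7.1.1, not scaled between arrays, on a probe grid built on rn4. The deposited table of processed intensity, an alternative here, lies within 2% of the same signal divided by one factor per array for 100% of probes (to 5 digits), so it is linear and uncentred, with column medians of 0.1062, 0.1104 and 0.1071 for ethylenediamine replicates 1 to 3 and 0.1076, 0.1053 and 0.1046 for water replicates 1 to 3.

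Control spots (1439) and 22 flagged probes were left out and 0 spots were saturated. Log2 intensity minus the array's 75th percentile was used. RefSeq accessions gave symbols (GRCr8 annotation, names only) to 28194 of 61515 probes. A probe was kept if well above background on all 3 arrays of a group (37822 probes), and the brightest kept probe stood for a gene. The 3 treated and 3 water arrays entered a limma fit (version 3.58.1, R 4.3.3, lmFit then eBayes) with Benjamini-Hochberg adjustment over all genes and a threshold of 0.05. The fit was tested on simulated data. The number of arrays limits the precision. The members and lists were chosen with earlier results of these data known. Named genes were the members, the 2 genes of smallest p in each list, any gene past the threshold, and the 5 closest profiles. One gene that this rule names is not reported here. The scanner files hold no mean spot signal, so normexp (offset 50) used the median signal. Alternatives were other background, scaling, filters, probe summary, slide and replicate blocks, moderation, array weights and each array left out.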

Additional observations from a re-analysis of the deposited data

How the results depend on the processing

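Of 160 values of the 8 members (20 alternatives each), 149 kept their sign and 11 did not, and 0 passed the threshold. The sign turned for Hspa8 with the mean of its probes (-0.0096), for Cryab with the slide as a fixed block or within slide 1 (-0.13), and for Hspd1 with quantile normalization (0.0049), the slide block or slide 1 (0.072). Leaving out each replicate in turn, Hspa4 ran from -0.127 to -0.0093, Hspb1 from 0.23 to 0.46, Cryab from 0.26 to 0.70, Hsp90aa1 from 0.067 to 0.145, Hspe1 from 0.029 to 0.055, Hspa8 from -0.034 to 0.11, Hsph1 from -0.14 to 0.051 and Hspd1 from -0.052 to 0.017. Hspa1a, added after seeing the data, was 0.17 with the slide block and within slide 1, and -0.43 to 0.24 with replicates left out. The cause was not tested. The median of the 8 stayed between 0.01 and 0.08. Not all of the 160 values were free to change. Robust moderation, the intensity trend and the replicate block cannot alter a log2 fold change here. The filter settings kept the same probes and gave the same values. The slide block and slide 1 gave identical values, so 149 of 160 overstates how stable the signs are.

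Genes called, 0 in the main setting (1194 at an unadjusted p under 0.05), were 10 with the slide block, 6 within slide 1, 1 with an intensity trend (Mrpl18, named after seeing its value) and 0 to 1 with replicates left out (Havcr1 without ethylenediamine replicate 1, Ugt2b7 without water replicate 2, likewise). Probes called, alternatives added after seeing the data, were 4 in the main setting, 7 with normexp, 76 with the slide block, 1 to 9 with replicates left out, and 3 to 6 in the other settings but the replicate block. The called genes included 0 members or listed chaperones. With the replicate number as a block 0 genes and 0 probes were called. Same-numbered arrays deviated together with correlations of -0.003, 0.0224 and -0.008 across genes, and not every array correlated best with its own number. No broad shift shared by same-numbered arrays was seen. Correlations across all genes cannot show a pairing that acts on some genes only. Both slides hold ethylenediamine arrays but only slide 1 holds water arrays, so a fixed slide block rests on ethylenediamine replicate 1. With 3 arrays per group, small differences are not detectable.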

Other observations

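The genes closest in centred profile to Cryab and Hspb1, chosen after the data were seen, are given as values. Closest to Cryab were Irx2, Ntrk3, Tyro3, Tenm3 and Afm, with root mean square differences of 0.113 to 0.118 log2 units over 6 arrays, where Cryab spanned 1.01. Tyro3, a receptor tyrosine kinase, read 1.57, 2.09 and 2.09 in ethylenediamine cortex, against 1.32, 1.68 and 1.62 in water cortex. As for Cryab, the 2 arrays of slide 2 were the highest. Closest to Hspb1 were Vmo1, Gstt2, Sox5, Pla2g10 and Trappc2, at 0.0499 to 0.0831, where Hspb1 spanned 0.571. Gstt2, a glutathione transferase, read 2.91, 2.79 and 2.71 in ethylenediamine cortex, against 2.31, 2.71 and 2.36 in water cortex, with water replicate 2 next to the treated arrays.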
